A study of Bos taurus with 12 samples.

Results

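The growth hormone and IGF axis was followed through 10 genes in liver of neonatal Holstein heifer calves. They are the growth hormone receptor GHR, its feedback inhibitor SOCS2, the ligands IGF1 and IGF2, the receptor IGF1R, the acid-labile subunit IGFALS and the binding proteins IGFBP1, IGFBP2, IGFBP3 and IGFBP4. The genes were chosen by symbol, and all 10 were found among the 30336 Entrez gene IDs of the count files. Liver was biopsied at 4 d of age. The 6 control calves (CON) were born to cows fed a close-up diet without added Met for the last 28 d before calving, and the 6 calves of the other group (MET) to cows fed that diet with ethyl-cellulose rumen-protected methionine. The close-up diet held 1.47 Mcal/kg of dry matter and 15.3% crude protein. Both groups were single-born heifers that received the same care after birth, which included iodine on the navel, an intranasal vaccine (TSV II), the first colostrum of their own dam, milk replacer and starter grain.

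In liver, growth hormone binds GHR, which signals through the kinase JAK2 to the transcription factors STAT5A and STAT5B, and these activate genes such as IGF1, IGFALS, SOCS2 and CISH. IGF1 leaves the liver as a hormone and circulates in large part in a complex with IGFBP3 and the IGFALS protein, while IGF2 is the main IGF of fetal life. IGFBP1 is made by hepatocytes and is suppressed by insulin, and IGFBP2 is a major binding protein of the fetus and newborn. In ruminants the coupling of growth hormone to hepatic IGF1 matures after birth, which is why the axis is of interest in newborn calves.

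Single-end reads of stranded mRNA libraries were counted per gene, with 8277789 to 10397604 counted reads per library. A gene with 3 reads stood at 0.289 to 0.362 CPM (reads scaled to a common library total), a floor that covers counting error only. The libraries of CON replicates 1 and 4 were close to identical (chi-square per gene 1.31, where 1 is counting noise alone), and so were those of MET replicates 1 and 3 (1.23), while the other 64 pairs of libraries lay between 23.25 and 122.2. One second index sequence was shared by CON replicate 1 and MET replicate 1, and another by CON replicate 4 and MET replicate 3. Libraries outside the near-identical pairs also shared second indexes, namely CON replicate 2 with MET replicate 2 and CON replicate 6 with MET replicate 5. The first index was one sequence in all CON and another in all MET libraries, and its effect cannot be told apart from that of diet. A pair was taken as a single sample, which leaves 5 per diet for every mean and SD, and tests of the 12 libraries stand beside tests of the 10 samples, for which the reads of a pair were added. Whether the libraries of a pair came from separate animals as labelled was not tested. Hepatocyte markers were high in all samples (summed 80200 to 144000 CPM), and the skeletal muscle genes ACTA1, CKM and MYL1 had no read. The erythroid markers ranged from 7.64 to 961 CPM in CON and from 57.1 to 460 CPM in MET, a spread whose part in the results was not tested.

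RNA for binding proteins and for IGF2 dominated the axis. Divided by exonic length (reads per kilobase of exon at the CPM scale, RPKM), IGFBP4 was the highest at 724 ± 89.3 RPKM (SD, n = 10 samples of both diets). It was followed by IGF2 at 268 ± 80.9, IGFBP2 at 243.5 ± 132, IGFBP1 at 146 ± 158.5 and IGFBP3 at 66.15 ± 14.75 RPKM. A lower group held GHR at 21.5 ± 6.44, IGFALS at 18.3 ± 6.67 and SOCS2 at 17.6 ± 13.7 RPKM, then IGF1 at 7.47 ± 3.76 and, last, IGF1R at 0.413 ± 0.159 RPKM. The ranges of neighbours in this order did not overlap at 3 steps, between IGFBP4 and IGF2, between IGFBP3 and GHR and between IGF1 and IGF1R. At all other steps they overlapped, and IGF2 exceeded IGFBP2 in only 6 of 10 samples. Among all tested genes, IGFBP4 ranked at the 99.3rd percentile of level, IGF2 at the 97.9th and IGF1R at the 3.84th. Levels per length depend on where the annotation ends a gene, and the annotated exons ran from 1011 bases in IGFBP2 to 10681 bases in IGF1.

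**Figure D1:**
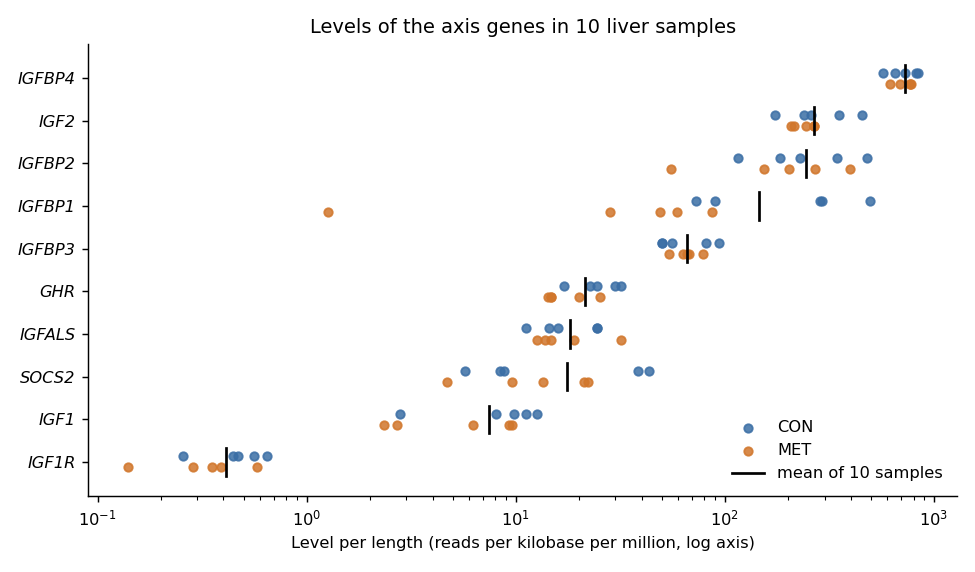
Level per length of the 10 axis genes (RPKM, log axis) in each of the 5 CON and 5 MET samples, with a bar at the mean of all 10. IGFBP4 stood above all others with a mean of 724 and IGF1R below all others with a mean of 0.413, and the point far to the left in the IGFBP1 row is MET replicate 2.

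Between the diets, IGFBP1 fell in MET and no other axis gene passed the test over the 12 libraries. That is 1 of 10 genes lower and 0 higher at FDR at most 0.10, against 4.41% of all 13212 tested genes called in either direction and 2.32% called lower. The test was edgeR's quasi-likelihood test, its p adjusted by Benjamini-Hochberg over all tested genes. Over the 10 samples the same test called none of the 10 genes, where it called 0.0% of 13242 tested genes. In that fit 2 axis genes, GHR and IGFBP1, reached an unadjusted p of 0.05, as did 16.3% of all genes. With DESeq2, IGFBP1 was the 1 axis gene called over the 12 libraries, where 9.95% of all genes were called and 5.15% called lower, and over the 10 samples, where 4.83% were called and 2.51% called lower. Of the 10 log2 fold changes, 8 were below 0 over the 12 libraries, as were 50.4% of those of all tested genes (over the 10 samples 8 of 10 and 50.5%), with a median of −0.398 in the axis and −0.00311 over all genes. In none of the 10 genes did the 5 MET samples lie apart from the 5 CON samples, as they did in 3.72% of all tested genes. These counts and medians describe the axis without a test.

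IGFBP1 (Entrez gene 282259) lies on chromosome 4 of UMD 3.1.1 from 76720425 to 76725309 on the minus strand. It was at 101, 125, 395, 403 and 684 CPM in the CON samples, and at 1.76, 39.2, 67.6, 81.3 and 121 CPM in the MET samples. Of the MET samples, 4 of 5 lay below every CON sample. The exception was MET replicate 4 at 121 CPM, above CON replicate 2 at 101 CPM, so the diets overlapped by a narrow margin. IGFBP1 averaged 342 ± 239 CPM in CON and 62.1 ± 44.7 CPM in MET (SD, n = 5 each), and its level was 6.04-fold lower in MET in the fit over the 12 libraries. In log2 terms the difference was −2.60 (SE 0.67, 95% interval −4.04 to −1.15), with edgeR adjusted p = 0.0766 over the 12 libraries. Over the 10 samples it was −2.46 (SE 0.78, 95% interval −4.17 to −0.755), with edgeR adjusted p = 0.192, and DESeq2 gave an adjusted p of 0.0891 there.

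The direction of the IGFBP1 difference was the same in all fits, and its call was not. Across the alternatives the log2 fold change lay between −3.03 and −2.29 and the adjusted p between 0.0109 (edgeR's likelihood-ratio test) and 0.239 (gene length correction over the 10 samples). With 1 library left out in turn, edgeR's quasi-likelihood test kept the call in 4 of 12 fits. It was lost without CON replicate 1, 3, 4 or 6 and without MET replicate 1, 3, 5 or 6, with an adjusted p between 0.104 and 0.135. Without MET replicate 2, whose library held 18 IGFBP1 reads, the log2 fold change was −2.34 with an edgeR adjusted p of 0.0545. Its spread between samples of the same diet, an SD of 1.90 on the log2 CPM scale, exceeded that of 99.6% of tested genes, against a median of 0.289 over all genes. In bulk tissue, fewer cells that express a gene and less RNA of it per cell cannot be told apart. Of all tested genes 4.41% passed the test over the 12 libraries. Kupffer cell and macrophage markers, of which 2 of 8 passed, summed to 1320 to 1750 CPM in CON and 1550 to 2070 CPM in MET, and hepatocyte markers, of which 1 of 8 passed, to 96500 to 144000 and 80200 to 116000 CPM. Stellate cell and fibroblast markers (1 of 8 passed) summed to 663 to 955 CPM in CON and 492 to 811 CPM in MET, and cholangiocyte markers (1 of 4 tested passed) to 50.8 to 78.1 and 30.5 to 67.8 CPM. Their part in the IGFBP1 difference was not tested.

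**Figure D2:**
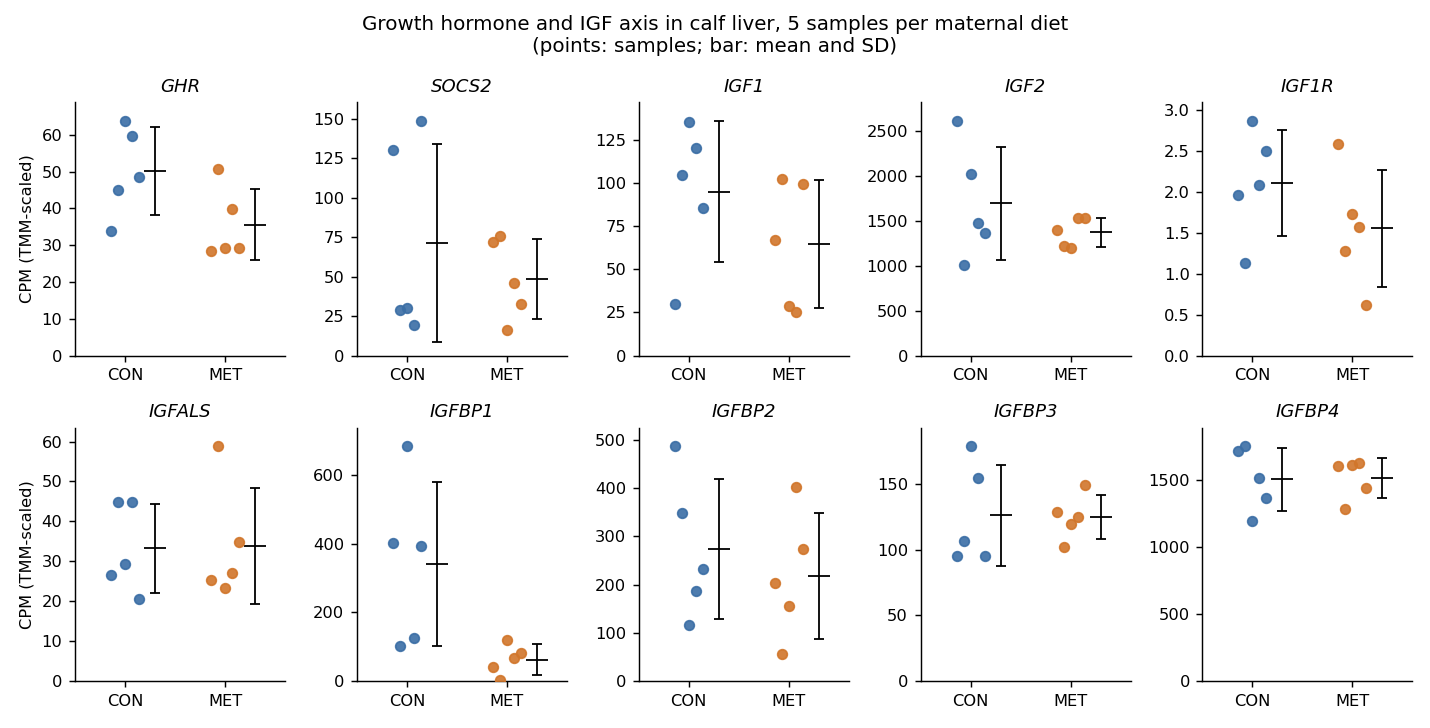
CPM of each axis gene (linear axes from 0, own scale per gene) in the 5 CON and 5 MET samples, with the mean and SD beside the points. IGFBP1 averaged 342 CPM in CON and 62.1 CPM in MET, while the CON and MET points of all 10 genes overlapped, those of IGFBP1 only through MET replicate 4.

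IGFBP3 (Entrez gene 282261) is the neighbour of IGFBP1, on chromosome 4 from 76705105 to 76713511 on the plus strand, with 6913 bases between the annotated ends of the genes. Its protein carries most of the circulating IGF. IGFBP3 was at 95.04, 95.5, 107, 155 and 179 CPM in CON and at 102, 119.5, 125, 129 and 150 CPM in MET. All MET values thus lay within the CON range, with means of 126 ± 38.4 and 125 ± 17.1 CPM (SD, n = 5 each). The log2 fold change of IGFBP3 was 0.054 over the 12 libraries (95% interval −0.315 to 0.424, edgeR adjusted p = 0.895) and −0.013 over the 10 samples (95% interval −0.434 to 0.408). That IGFBP1 and IGFBP3 differ in their response was not tested.

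IGFBP2 (chromosome 2, 105338358 to 105367086) ranged widely within both diets. It was at 117, 187, 232, 348 and 487 CPM in CON and at 55.7, 155, 204, 273 and 404 CPM in MET, so that the diets overlapped over nearly their whole ranges. The log2 fold change of IGFBP2 was −0.518 over the 12 libraries (95% interval −1.41 to 0.372, edgeR adjusted p = 0.504) and −0.329 over the 10 samples (95% interval −1.35 to 0.691). It was −0.337 without CON replicate 1, −0.319 without MET replicate 2 and −0.793 without MET replicate 5. IGFBP4, an inhibitory binding protein expressed in many tissues and annotated on chromosome 19 from 41326678 to 41338267, was the steadiest of the axis. It was at 1193 to 1752 CPM in CON and 1284 to 1627 CPM in MET, and its spread within diets, an SD of 0.195 on the log2 CPM scale, was larger than that of only 21.9% of tested genes. The log2 fold change of IGFBP4 was −0.012 with a 95% interval of −0.285 to 0.260 over the 12 libraries.

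Of the summed level per length of the 4 binding proteins, IGFBP1 made up 18.8 ± 13.3% in CON and 4.01 ± 2.96% in MET, and IGFBP4 made up 55.9 ± 9.41% in CON and 70.4 ± 9.64% in MET (SD, n = 5 each). IGFBP1 held its largest share, 38.8%, in a CON sample and its smallest, 0.175%, in a MET sample. The share of IGFBP2 was 20.1 ± 7.98% in CON and 19.3 ± 9.01% in MET. These shares restate the same counts and were not tested.

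**Figure D3:**
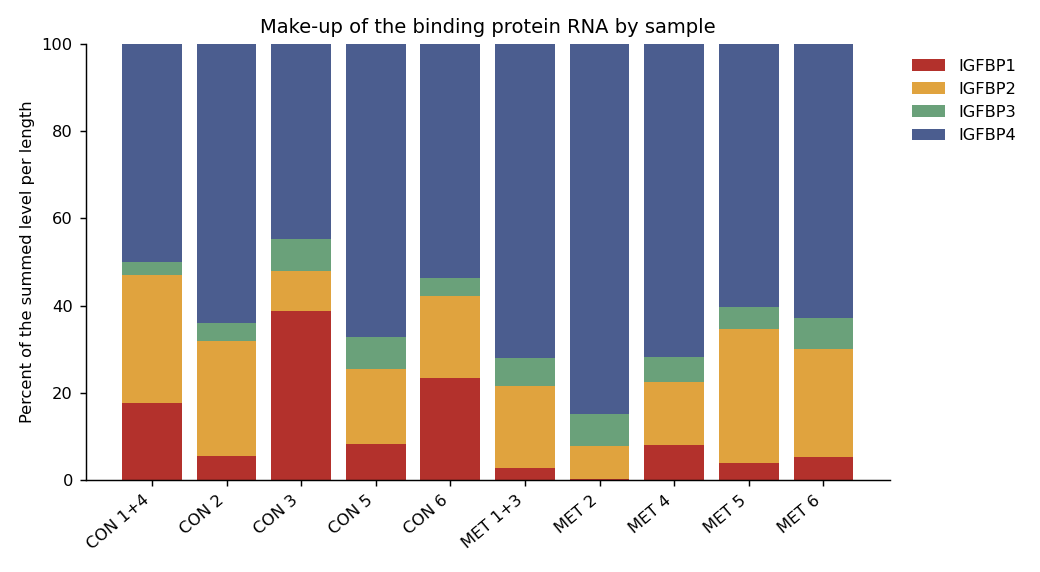
Share of IGFBP1, IGFBP2, IGFBP3 and IGFBP4 in their summed level per length (percent, stacked bars from 0 to 100) in each of the 10 samples, named by diet and replicate. The IGFBP1 part ran from 5.55 to 38.8% in CON and from 0.175 to 8.10% in MET.

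Of the ligands, IGF2 outnumbered IGF1 in every sample, by a factor of 17.9 to 163 per length. IGF2 (chromosome 29, 50037872 to 50065231), a growth factor, was at 1003, 1368, 1476, 2017 and 2611 CPM in CON and at 1193, 1224, 1400, 1527 and 1529 CPM in MET. The MET samples lay close together, and all were within the CON range. IGF2 gave a log2 fold change of −0.422 in the 12 libraries (95% interval −0.884 to 0.039, edgeR adjusted p = 0.286) and of −0.303 over the 10 samples (95% interval −0.813 to 0.206, edgeR adjusted p = 0.549). The highest CON value, 2611 CPM, was that of the near-identical CON pair, which enters the 12-library fit as 2 libraries and the 10-sample fit as 1.

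IGF1 (chromosome 5, 66523798 to 66604781) was at 29.9, 85.7, 104, 120 and 135 CPM in CON and at 25.1, 28.8, 66.7, 99.6 and 102 CPM in MET. The 3 lowest values came from the CON pair and from MET replicates 4 and 5, and the other 7 samples lay between 66.7 and 135 CPM. IGF1 gave a log2 fold change of −0.374 in the 12 libraries (edgeR adjusted p = 0.659), with a 95% interval of −1.295 to 0.546. Over the 10 samples it was −0.555 (95% interval −1.53 to 0.418, edgeR adjusted p = 0.566). Leaving out 1 library moved the value of IGF1 to −0.188 (CON replicate 3), −0.245 (CON replicate 5), −0.222 (MET replicate 4) or −0.207 (MET replicate 5), and a gene length correction gave −0.223.

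GHR, through which growth hormone acts on the liver, lies on chromosome 20 from 31890736 to 32064204. It was at 33.7, 45, 48.6, 59.6 and 63.7 CPM in CON and at 28.45, 29.27, 29.35, 39.8 and 50.6 CPM in MET. Of the MET samples, 3 of 5 lay below every CON sample, and the other two lay inside the CON range. The log2 fold change of GHR was −0.466 over the 12 libraries (95% interval −0.883 to −0.049, unadjusted p = 0.0311, edgeR adjusted p = 0.199) and −0.498 over the 10 samples (unadjusted p = 0.0319, edgeR adjusted p = 0.268). Over the 12 libraries an unadjusted p of at most 0.05 was shared by 20.5% of all tested genes.

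SOCS2 (chromosome 5, 23523751 to 23528861), which growth hormone induces and which then dampens the signal of its receptor, varied 9.29-fold between the lowest and the highest sample. It was at 19.5, 28.7, 29.9, 131 and 149 CPM in CON and at 16.0, 32.9, 46.0, 72.0 and 75.8 CPM in MET. The CON samples fell into a high and a low set with a gap between 29.9 and 131 CPM, and 4 of the 5 MET samples lay within that gap. SOCS2 gave a log2 fold change of −0.631 in the 12 libraries with a 95% interval of −1.75 to 0.483 (edgeR adjusted p = 0.518) and of −0.370 without CON replicate 6, limma voom gave −0.360, and its spread within diets exceeded that of 98.4% of tested genes.

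IGFALS (chromosome 25, 1366647 to 1369458), which holds IGF1 and IGFBP3 in the circulating complex, averaged 33.3 ± 11.1 CPM in CON and 33.9 ± 14.6 CPM in MET (SD, n = 5 each). MET replicate 2, the sample with the lowest IGFBP1, had the highest IGFALS at 58.8 CPM. IGFALS gave a log2 fold change of 0.014 in the 12 libraries (95% interval −0.528 to 0.556), and without MET replicate 2 it was −0.242. IGF1R (chromosome 21, 7967701 to 8268340), the receptor for both IGFs in most other tissues, had 6 to 30 reads per library and 0.6185 to 2.86 CPM per sample. At this depth its 95% interval for the log2 fold change ran from −0.949 to 0.409, and its value of −0.268 became −0.160 without CON replicate 3, −0.458 without MET replicate 1 and −0.099 without MET replicate 6.

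**Figure D4:**
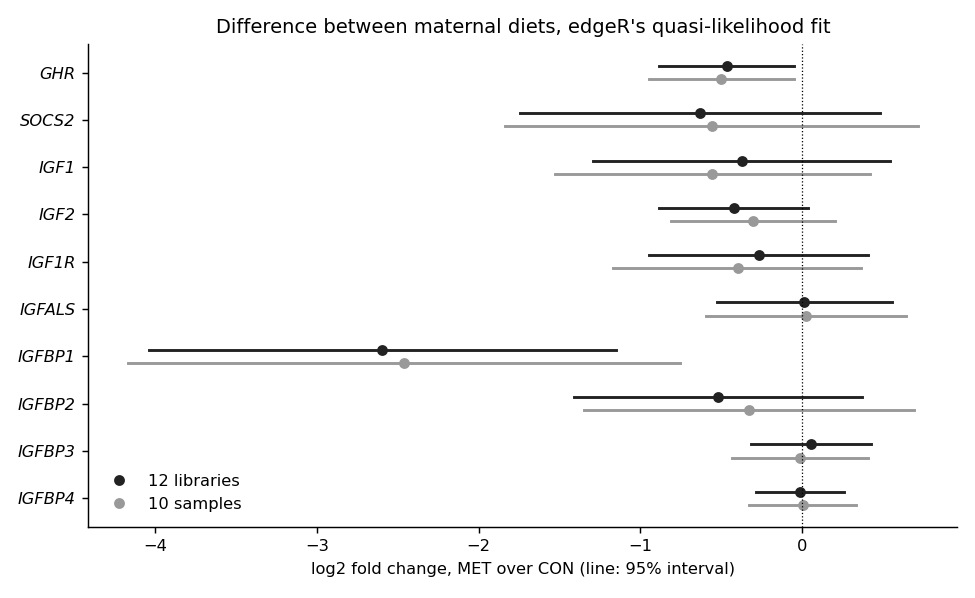
Log2 fold change of MET over CON with its 95% interval for each axis gene, from edgeR's quasi-likelihood fit over the 12 libraries (dark) and over the 10 samples (grey). The intervals of IGFBP1 and GHR lay below 0 in both fits, and those of the other 8 genes included 0 in both.

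Whether the axis genes varied together from calf to calf was examined over the 10 samples, on log2 CPM with the mean of each diet removed, in all 45 pairs. Of the 45 pairs, 0 passed an adjusted p of 0.10, and 4 reached an unadjusted p of 0.05 by an exact two-sided permutation test of samples within diets (14400 arrangements). IGFBP2 and IGFBP4 gave the lowest p, with r = 0.772 (exact permutation p = 0.00764, adjusted p = 0.294) and Spearman's rho = 0.709 (exact permutation p = 0.0299, adjusted p = 0.588). Without the 2 samples farthest from the median of IGFBP2, r was 0.601, and with libraries scaled by their totals alone it was 0.423. The next pair was IGFALS and IGFBP1, with r = −0.832 (exact permutation p = 0.0131, adjusted p = 0.294) and rho = −0.527 (exact permutation p = 0.142, adjusted p = 0.599), and r = −0.567 without the 2 samples farthest from the median of IGFALS. GHR was opposed to IGFBP2 with r = −0.703 (exact permutation p = 0.0362, adjusted p = 0.466), rho = −0.661 (exact permutation p = 0.0590, adjusted p = 0.598) and r = −0.650 without the 2 farthest samples. GHR was opposed also to IGFBP4, with r = −0.687 (exact permutation p = 0.0415, adjusted p = 0.466), rho = −0.588 (exact permutation p = 0.0930, adjusted p = 0.598) and r = −0.572 without the 2 farthest samples.

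Among the growth hormone targets, IGF1 and IGFALS gave r = 0.576 (exact permutation p = 0.107, adjusted p = 0.543) and rho = 0.709 (exact permutation p = 0.0392, adjusted p = 0.588), with r = 0.439 without the 2 samples farthest from the median of IGF1. GHR and IGF1 gave r = 0.506 (exact permutation p = 0.153, adjusted p = 0.543), rho = 0.527 (exact permutation p = 0.145, adjusted p = 0.599) and r = 0.520 without the 2 farthest samples. Within the diets the GHR and IGF1 values gave r = 0.919 over the 5 CON samples and 0.139 over the 5 MET samples, neither of which was tested. All 45 relations share libraries and their scaling, and over the 10 samples none can be told from chance variation after adjustment. With MET replicate 5 left out, GHR and IGFBP2 gave r = −0.949 (adjusted p = 0.0469 by the exact permutation test).

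The tested genes whose diet-centred values were most like those of an axis gene over the 10 samples were NEPRO, POMGNT2 and CDKL4 for GHR (r = 0.942, 0.928 and 0.918) and KIF16B, COQ2 and ACSL5 for IGF1 (r = 0.937, 0.929 and 0.926). For IGF2 they were MTHFSD, ZC3H11A and MAP4K1 (r = 0.958, 0.930 and 0.926), for IGFBP1 GEM, ADCY2 and SYF2 (r = 0.952, 0.921 and 0.904), and for IGFBP2 ZSWIM1, POMT2 and TBKBP1 (r = 0.957, 0.946 and 0.941). No axis gene was among these. With 13212 genes to choose from and 10 samples that share their scaling, these are descriptions without a test.

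A further 51 genes of the pathway were listed from general knowledge, of which 40 passed the filter on low counts. Over the 12 libraries, 1 of the 40 was lower and 0 were higher in MET at FDR at most 0.10 by edgeR's quasi-likelihood test, which called 4.41% of all tested genes, and over the 10 samples 0 were called by that test. There 8 of the 40 reached an unadjusted p of 0.05, beside 16.3% of all tested genes, and DESeq2 called 1, beside 4.83%. The called gene was each time IRS1, which carries the signal of the insulin and IGF1 receptors. It averaged 65.7 ± 13.95 CPM in CON and 43.8 ± 7.28 CPM in MET (SD, n = 5 each), and 4 of 5 MET samples lay below every CON sample. The log2 fold change of IRS1 was −0.550 (SE 0.142, edgeR adjusted p = 0.0759) in the 12 libraries and −0.584 over the 10 samples (edgeR adjusted p = 0.176, DESeq2 adjusted p = 0.0479). Its call was lost without CON replicate 1, 3 or 4 and without MET replicate 1, 2, 4, 5 or 6, with an edgeR adjusted p of up to 0.135, and its log2 fold change then lay between −0.596 and −0.488. The median log2 fold change of the 40 genes was −0.129, with 24 below 0. By role, 0 of 12 genes of the growth hormone signal, 0 of 7 inhibitors, 0 of 5 further targets, 1 of 8 receptors and substrates, 0 of 3 other binding proteins, 0 of 3 proteases and their inhibitors and 0 of 2 proteins that bind IGF2 mRNA were called over the 12 libraries by edgeR's quasi-likelihood test. In this order, 4, 3, 1, 2, 0, 0 and 1 of them reached an unadjusted p of 0.05, in all 11 of 40 beside 20.5% of all tested genes.

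The remaining signal genes did not pass edgeR's quasi-likelihood test, while DESeq2 over the 12 libraries called PRLR (adjusted p = 0.0348), CISH (0.0591) and PTPN6 (0.0718), and edgeR's likelihood-ratio test called PRLR (0.0576) and CISH (0.0814). With IRS1 these are 4 of 40 genes for DESeq2, beside 9.95% of all tested genes, and 3 of 40 for the likelihood-ratio test, beside 6.92%. Over the 10 samples DESeq2 called none of PRLR, CISH and PTPN6 (adjusted p = 0.123, 0.123 and 0.223). Nor did edgeR's quasi-likelihood test there (adjusted p = 0.252, 0.213 and 0.274). Without MET replicate 6 the quasi-likelihood test itself called CISH, with a log2 fold change of 0.686 (edgeR adjusted p = 0.0964). JAK2 had a log2 fold change of −0.304 (SE 0.147), STAT5A of −0.233 (0.165) and STAT5B of −0.181 (0.198). The value of STAT5B was −0.025 without CON replicate 1, −0.079 without CON replicate 4, −0.272 without CON replicate 5 and −0.113 without MET replicate 2, and that of STAT5A was −0.149 without MET replicate 6. Of the inhibitors, CISH, a growth hormone target like SOCS2, averaged 6.08 ± 1.59 CPM in CON and 9.35 ± 1.94 CPM in MET (SD, n = 5 each), and 4 of 5 MET samples lay above every CON sample. The log2 fold change of CISH was 0.586 over the 12 libraries (unadjusted p = 0.00813, edgeR adjusted p = 0.119), opposite in sign to that of SOCS2. Log2 fold changes over the 12 libraries were 0.728 (SE 0.388) for SOCS3 and −0.259 (0.103) for SOCS6, and that of SOCS3 was 0.269 without MET replicate 5. The prolactin receptor PRLR, a relative of GHR, averaged 229 ± 118 CPM in CON and 112 ± 54.3 CPM in MET, with a log2 fold change of −1.15 (SE 0.373, edgeR adjusted p = 0.120). The phosphatases PTPN6 and PTPN1, which remove phosphate from the signalling proteins, had log2 fold changes of 0.303 (0.101) and 0.450 (0.197), LEPROTL1 of 0.250 (0.091) and CUX2, a target of growth hormone in rodent liver, of 1.07 (0.464). The value of CUX2 was 0.633 without MET replicate 4, and 2 of 5 MET samples lay above every CON sample. A gene length correction moved LEPROTL1 to 0.083, SOCS6 to −0.161 and STAT5B to −0.072.

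Among the receptors, IGF2R, which clears IGF2, had a log2 fold change of −0.416 (SE 0.194, edgeR adjusted p = 0.245), INSR of −0.251 (0.194) and the substrate IRS2 of −0.756 (0.312, edgeR adjusted p = 0.193). Of the other binding proteins, IGFBP7 was the most abundant at 113 RPKM, with a log2 fold change of −0.225 (0.147). IGFBP5 and IGFBP6 were at 2.11 and 2.63 RPKM, with log2 fold changes of −0.261 (0.240) and 0.135 (0.300). With 1 library left out, IGFBP7 ran from −0.341 to −0.135, IGFBP5 from −0.410 to −0.098, IGFBP6 from −0.204 to 0.250 and INSR from −0.324 to −0.112. With a gene length correction the values were −0.359 for IGFBP7, 0.010 for IGFBP6 and −0.108 for INSR, and limma voom gave 0.016 for IGFBP6. The proteases PAPPA and PAPPA2, which cleave binding proteins to free the IGFs, had 16 and 6 reads in all 12 libraries together, and their inhibitor STC2 had 1. STC1, a related inhibitor, had 158 reads and a log2 fold change of −0.669 (0.401), which was −0.432 without CON replicate 6. Reads of GH1, GHRL and GHRH were 0 in every library, which at this depth allows up to 0.289 to 0.362 CPM per library.

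**Figure D5:**
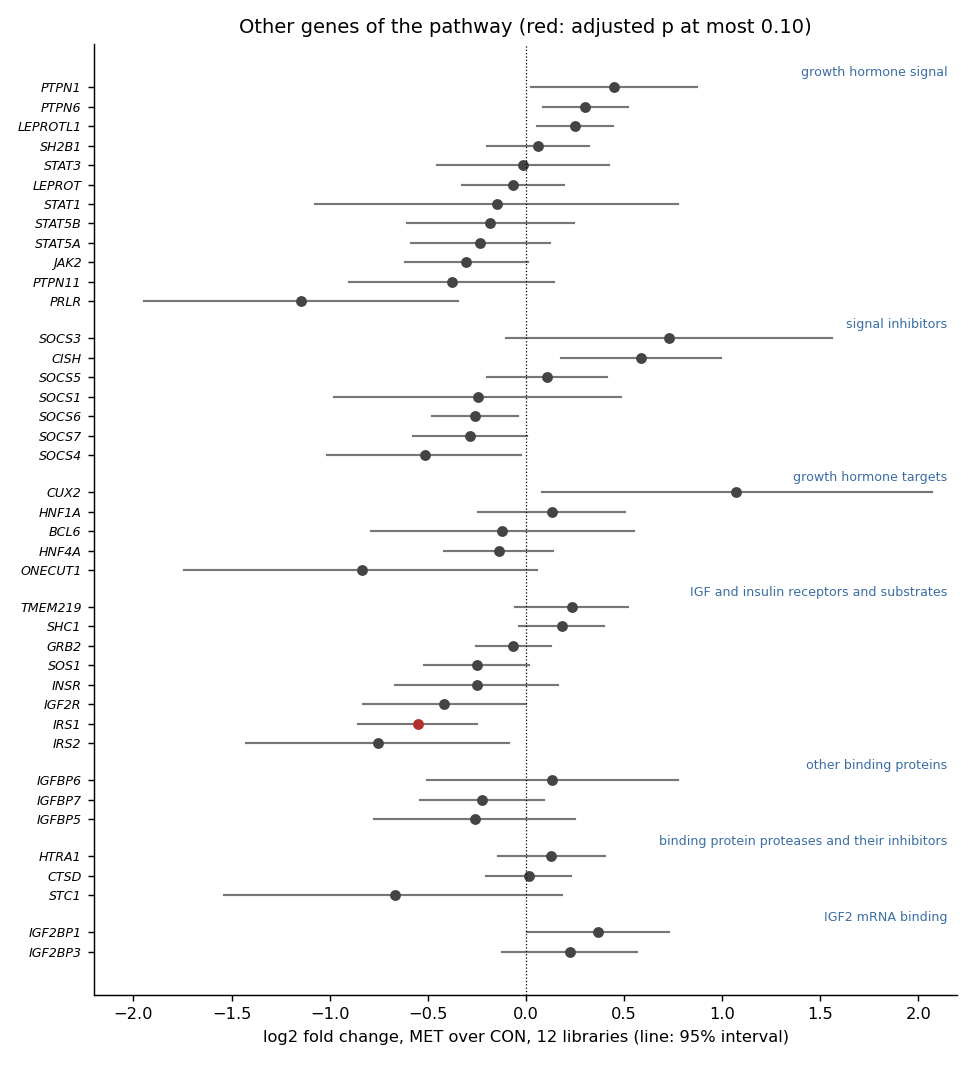
Log2 fold change of MET over CON with its 95% interval over the 12 libraries for the 40 tested genes of the wider pathway, grouped by role. IRS1 at −0.550 is the 1 gene in red, with an adjusted p of 0.0759.

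Since IGFBP1 is suppressed by insulin, it was set against 10 genes that rise in fasted liver. Of the 9 that passed the filter, PCK1, a key enzyme of glucose synthesis, and CPT1A, which admits fatty acids to mitochondria, were lower in MET over the 12 libraries, with log2 fold changes of −0.995 (edgeR adjusted p = 0.0570) and −0.546 (edgeR adjusted p = 0.0846). These are 2 of 9 genes called lower, against 2.32% of all tested genes. The list was written with earlier results of these data known, and the paper had reported both genes as downregulated. Counts of called genes in this list are therefore descriptions without a test. Over the 10 samples neither was called by edgeR (adjusted p = 0.175 and 0.183), while DESeq2 called both (adjusted p = 0.0190 and 0.0493) and also TAT, an enzyme of tyrosine breakdown (log2 fold change −0.586, adjusted p = 0.0775), 3 of 9 beside 4.83% of all tested genes. Over the 12 libraries DESeq2 called the same 3 genes, TAT with an adjusted p of 0.0847, beside 9.95%, and edgeR's quasi-likelihood test gave TAT an adjusted p of 0.148. The call of PCK1 was lost without CON replicate 1 or 4 (edgeR adjusted p = 0.113 and 0.123), and that of CPT1A without CON replicate 1, 4 or 6 or MET replicate 1, 2, 4, 5 or 6 (edgeR adjusted p between 0.104 and 0.160). With libraries scaled by their totals alone neither was called (edgeR adjusted p = 0.101 for PCK1 and 0.156 for CPT1A), and CPT1A was also lost without the filter (0.125) and with a gene length correction (0.128). PCK1 averaged 554 ± 193 CPM in CON and 302 ± 59.6 CPM in MET, and CPT1A 287 ± 55.1 and 197 ± 32.7 CPM (SD, n = 5 each). PCK1, CPT1A and TAT were chosen for naming after their values were seen. From sample to sample within diets, IGFBP1 was related to none of the 10 after adjustment over them, and the lowest exact permutation p was 0.228 (IRS2, r = 0.497, adjusted p = 0.857). For IRS2, Spearman's rho was 0.442 (exact permutation p = 0.237, adjusted p = 0.872), and r was −0.081 without the 2 samples farthest from the median of IGFBP1. For PCK1, r was −0.285 (exact permutation p = 0.343, adjusted p = 0.857), rho was −0.103 (exact permutation p = 0.785, adjusted p = 0.872), and r was 0.211 without the 2 farthest samples. Over the 5 MET samples alone the PCK1 and IGFBP1 values gave r = −0.889, and over the 5 CON samples r = 0.233. Neither value was tested. The MET samples include MET replicate 2, which had the lowest IGFBP1 (1.76 CPM) and the highest PCK1 (400 CPM) of that diet.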

How the data were processed

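Liver RNA was measured in 12 libraries, 6 per maternal diet, which were labelled as 12 calves and grouped by their labels. The authors aligned the reads to UMD 3.1.1 with STAR 2.5.3a and deposited raw counts per Entrez gene from featureCounts (reverse-stranded exon counting, version 1.5.2 per the file headers), with exonic lengths. Symbols came from a RefSeq gene table of a later assembly, which named 25105 of 30336 IDs. Positions are those of the count files, with chromosome numbers read from that table (98.5 to 100% of the genes of each sequence matched). No exon of an axis gene overlapped another gene. No sequence is shown, since none was used here. CPM were scaled by TMM factors in edgeR 4.0.16 (R 4.3.3). Genes passing edgeR's default filter (minimum count 10, minimum total 15) were tested together with edgeR's quasi-likelihood test on diet, with Benjamini-Hochberg adjustment and a threshold of 0.10, as the study's methods state. Log2 CPM used a prior count of 2. Alternatives included DESeq2 1.42.0 and limma voom 3.58.1. Figures used Python 3.11.15. The functions for the fits and for the relations across samples were tested on simulated data, and the other steps were not. The axis genes, the pathway, fasting and marker lists, and the sample pairs were chosen with earlier results of these data known. The rule for naming took all axis genes, the pathway genes called and the next 8 by p, a set fixed by role, and the 3 genes most alike for each of 5 axis genes. Since replicates are labelled as separate calves but 2 pairs were near-identical, p-values over the 12 libraries treat these as independent. The precision is set by depth and by 5 samples per diet. Depth per library is given above.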

Additional observations from a re-analysis of the deposited data

Results flagged for a closer look

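Of the 20 sets of 5 samples (10 axis genes in each diet), 1 held a sample that stood apart from the others by Dixon's criterion for 5 values (a gap over 0.71 of the range on the log2 CPM scale), a number that chance gives at about 1 in 20 sets. MET replicate 2 had 1.76 CPM of IGFBP1, against 39.2 to 121 CPM in the other MET samples, with a gap of 0.729 of the range.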

How the results depend on the processing

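The number of genes called over the 12 libraries (583) moved to 107 with library size only, 238 without the filter, 914 with edgeR's likelihood-ratio test, 1314 with DESeq2, 253 with the gene length correction, and 0 with pairs summed, with or without that correction (edgeR's quasi-likelihood test, where 2165 genes reached an unadjusted p of 0.05 and DESeq2 called 639). With 1 library left out it ranged from 26 (without CON replicate 1) to 565 (without CON replicate 2), was 35 without CON replicate 4 and 459 without CON replicate 5, and lay between 206 and 376 without any other library. The axis genes called went from 1 to 0 with pairs summed (also with the length correction), with library size only, robust estimation or limma voom, and ranged from 0 to 1 with a library left out. The wider pathway genes called went from 1 to 0 with pairs summed (also with the length correction), library size only, no filter or the length correction, to 3 with the likelihood-ratio test (IRS1, PRLR and CISH) and to 4 with DESeq2 (these and PTPN6), and ranged from 0 to 1 with a library left out. The causes were not tested. Replicate numbers did not pair the samples, since same-numbered libraries of the diets deviated with r from −0.190 to 0.148 and 0 CON replicates were closest to their own number. With the replicate block 6 genes were called, of which 0 were axis and 0 wider pathway genes, and with it IGFBP1 had a log2 fold change of −2.92 (edgeR adjusted p = 0.143), SOCS2 of −0.301 and IGFBP6 of 0.048, and IRS1, PCK1 and CPT1A had adjusted p of 0.169, 0.150 and 0.169. The sign turned for IGFALS, IGFBP3, IGFBP4 and IGFBP6 among the genes named. IGFALS had a log2 fold change of −0.007 with upper-quartile factors, −0.006 with voom, −0.025 with the length correction, −0.009 with that correction over the 10 samples, −0.010 with the replicate block, and −0.242 to 0.135 with a library left out. IGFBP3 had −0.013 over the 10 samples, −0.011 there with DESeq2, −0.051 there with the length correction, and −0.012 to 0.199 with a library left out. IGFBP4 had 0.005 over the 10 samples, 0.007 there with DESeq2, 0.024 with library size only, and −0.076 to 0.034 with a library left out, and IGFBP6 ran from −0.204 to 0.250. Pairs of axis genes related across samples ranged from 0 to 1 (GHR and IGFBP2, r = −0.949 and adjusted p = 0.0469 by the exact permutation test, without MET replicate 5). Without division by length 4 of the 10 genes kept their place in the order by level. The length correction over the 10 samples moved IGF2 to −0.198, JAK2 to −0.171, SOCS6 to −0.138, LEPROTL1 to 0.073, STAT5B to −0.005, INSR to −0.032, IGFBP6 to 0.031 and IGFBP7 to −0.397. DESeq2 and the length correction over the 10 samples were added after the data were seen. IGF1R had 6 to 30 reads per library, and the parts of counting error and of the spread between samples in its interval were not told apart.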
